A study of Mus musculus with 6 samples.

Results

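The nuclear genes of respiratory complex III, cytochrome c, complex IV and ATP synthase were examined in satellite cells (SCs) with and without Slug. Members were all gene symbols that begin with Uqcr, with Cox followed by 4 to 8, or with Atp5, together with *Cyc1* and *Cycs*. The rule used symbols alone and no measured value. The array's annotation holds 47 such genes, and 45 of them have a probe set with that symbol only, out of 22180 genes measured this way. These are 9 genes of complex III, *Cycs*, 17 genes of complex IV and 18 genes of ATP synthase. *Uqcr10* and *Cox6c* lie only on probe sets that carry another symbol as well, and they enter no count.

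SCs are the muscle stem cells that lie quiet under the basal lamina of the myofibre. They were sorted as CD45-Sca1-CD11b-CD31-CD34+Integrin-α7+ cells from uninjured hindlimb muscle of adult male C57BL6 mice, and RNA was extracted with no culture in between. One genotype was Slug+/+ and the other Slug-/-, a knockout in every cell of the animal, so that other tissues of these mice lack Slug too. Each genotype has 3 samples with 1 Affymetrix whole-transcript array each. The labels call them biological replicates and do not say that each is 1 mouse, so p-values measure only the spread between these samples.

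Complex III takes electrons from ubiquinol and hands them to cytochrome c, and complex IV takes them from cytochrome c and reduces oxygen to water. Both move protons across the inner mitochondrial membrane, and ATP synthase lets them flow back through a rotating ring to make ATP. Quiescent SCs are known for few mitochondria and a low oxygen use, and both rise when the cells are activated. Slug, encoded by *Snai2*, is a zinc-finger repressor that binds the E-box CAGGTG.

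Because the members are compared together, the DNA just upstream of their starts is shown first. RefSeq windows of 300 bases, from 250 before to 50 after an annotated start, were at hand for 33 of the 45 members. The E-box CAGGTG, or CACCTG on the other strand, occurred in 6 of these 33 (18.18%) and in 22.56% of 27025 genes. It stood in the windows of *Uqcrc1*, *Cox6b1*, *Atp5d*, *Atp5e*, *Atp5g2* and *Atp5k*. Of these 6 genes, *Cox6b1*, *Atp5e* and *Atp5g2* are among those whose Slug-/- arrays all lay above their Slug+/+ arrays. The stretches around their E-boxes are printed on the gene's strand, in RefSeq coordinates of GRCm38.p6, with the E-box in capitals.
Cox6b1, chr7:30626278-30626364, minus strand, E-boxes 237 and 209 bases before the start: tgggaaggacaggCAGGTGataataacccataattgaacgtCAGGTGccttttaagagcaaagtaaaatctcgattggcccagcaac
Atp5e, chr2:174464179-174464303, minus strand, E-boxes 162 and 123 bases before the start: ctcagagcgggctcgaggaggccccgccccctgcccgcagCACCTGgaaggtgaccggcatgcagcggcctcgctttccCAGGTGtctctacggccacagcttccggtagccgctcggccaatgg
Atp5g2, chr15:102671166-102671251, minus strand, E-box 164 bases before the start: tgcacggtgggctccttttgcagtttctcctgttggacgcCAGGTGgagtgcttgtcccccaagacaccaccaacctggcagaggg

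Motifs of the factors known to drive respiratory genes were searched in the same windows on both strands. The core of the NRF1 site, GCATGCGC or GCGCATGC, occurred in 7 of the 33 members (21.21%) and in 3.05% of all genes. The ETS-type site CCGGAAG or CTTCCGG, which GABP can bind, occurred in 11 members (33.33%) and in 9.93% of all genes. The CCAAT box or its reverse ATTGG occurred in 18 members (54.55%) and in 41.06% of all genes. Of 9 members with a window whose Slug-/- arrays all lay above their Slug+/+ arrays, 8 held the CCAAT box, 7 the ETS-type site, 3 the E-box and 2 the NRF1 core. These matches are descriptions of the letters and no binding was measured. The ETS-type sites of a complex III, a complex IV and an ATP synthase gene are shown in capitals.
Uqcrh, chr4:116075071-116075120, minus strand, site 10 bases before the start: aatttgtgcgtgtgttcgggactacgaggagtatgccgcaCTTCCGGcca
Cox6b1, chr7:30626115-30626182, minus strand, site 28 bases before the start: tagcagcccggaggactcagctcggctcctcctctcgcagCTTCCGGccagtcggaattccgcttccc
Atp5h, chr11:115419920-115419997, minus strand, site 38 bases before the start: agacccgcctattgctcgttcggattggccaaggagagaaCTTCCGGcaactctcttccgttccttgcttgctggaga

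Values are log2 expression values as the authors deposited them, so a difference of 1 is a fold of 2. *Snai2* read 6.25, 6.66 and 6.53 in Slug+/+ and 5.15, 5.10 and 4.59 in Slug-/- SCs. No source used here says if these probes match the deleted sequence. The SC factor *Pax7* had a mean of 9.37 in Slug+/+ and 9.18 in Slug-/- SCs. As a guide to background, the 95th percentile of 1105 olfactory receptor genes was 3.05, and 40 of the 45 members lay above it on average. Any 2 arrays correlated with Pearson's r of 0.946 to 0.966 across probe sets, which are not independent replicates. In sorted cells measured in bulk, fewer cells of a type and less RNA per cell cannot be told apart.

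Most respiratory genes read slightly higher in Slug-/- SCs. Of the 45 members, 37 had a positive difference (Slug-/- minus Slug+/+), against 48.4% of all genes. The median difference was 0.30, while the median over all genes was -0.01. The median was 0.47 in complex III, 0.24 in complex IV and 0.25 in ATP synthase, and *Cycs* had a difference of 0.51. In 13 members (28.9%) every Slug-/- array lay above every Slug+/+ array, against 5.24% of all genes, and in 1 member every Slug-/- array lay below, against 5.4% of all genes.

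No member passed the limma test after Benjamini-Hochberg adjustment over all genes, and neither did any other gene (0% of 22180). The smallest adjusted p of a member was 0.823 and the smallest of all genes 0.435. At an unadjusted p under 0.05, limma called 7 members higher and 1 lower, against 3.31% and 2.49% of all genes. The plain unpaired test called 8 and 1 members, and 590 and 588 of all genes. With a fold over 2 in addition, limma called no member, against 0.897% of all genes. The count of 7 fell to 1 when either Slug+/+ replicate 1, Slug-/- replicate 1 or else Slug-/- replicate 3 was left out, and to 4 without Slug+/+ replicate 2. It was 4 after quantile normalization, 3 after cyclic loess normalization and 0 where only genes above background were fitted. In that last fit 501 of 11838 genes were called higher. The count of 13 became 26 without Slug-/- replicate 2, where the share of all genes also rose, to 10.1%. With the mean of probe sets the count fell to 10, against 5.19% of all genes. After quantile and cyclic loess normalization the count was 12, against 5.61% and 5.81% of all genes.

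**Figure D1:**
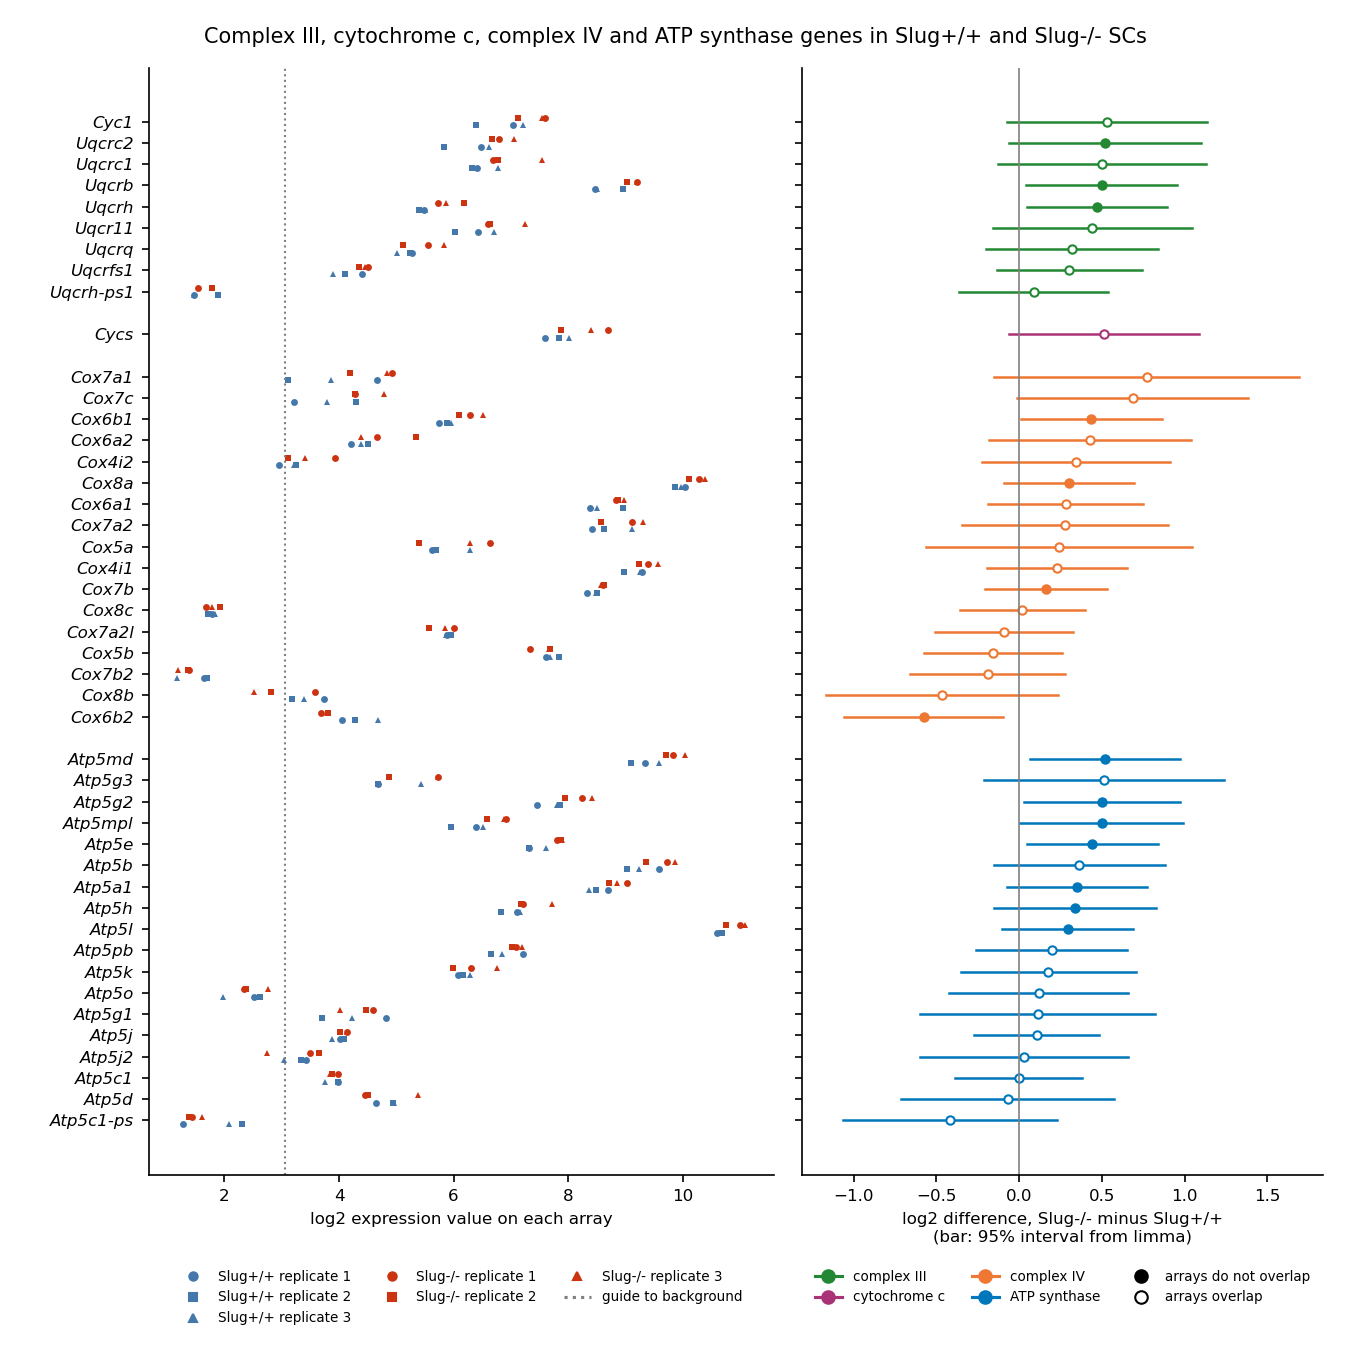
Left, log2 expression value of each member on each of the 6 arrays, with the guide to background at 3.05, and right, log2 difference (Slug-/- minus Slug+/+) with its 95% interval from limma, filled where the arrays of both genotypes do not overlap. Of the 45 points, 37 lie to the right of 0, and the intervals of 8 members do not include 0.

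The arrays did not share this shift equally. The highest value of a member fell on Slug-/- replicate 3 for 20 members, on replicate 1 for 12 and on replicate 2 for 5, and on a Slug+/+ array for the remaining 8. Taken as the median over the members of each array's deviation from the Slug+/+ mean, the 3 Slug-/- arrays stood at 0.29, 0.15 and 0.42. The 3 Slug+/+ arrays stood at -0.00, -0.03 and 0.03. Replicate 2 was thus the Slug-/- array nearest to the Slug+/+ arrays.

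All 9 measured genes of complex III had a positive difference, from 0.09 to 0.53, and in 3 of them, *Uqcrb*, *Uqcrh* and *Uqcrc2*, the genotypes did not overlap. These 3 were 33.3% of the 9, against 5.24% of all genes with Slug-/- above Slug+/+. *Uqcrb*, a small subunit beside the quinone-binding site, read 8.46, 8.96 and 8.50 in Slug+/+ and 9.20, 9.02 and 9.20 in Slug-/- SCs. Slug+/+ replicate 2 came within a short distance of the lowest Slug-/- array, and the difference was 0.50 (standard error 0.20, adjusted p = 0.839 from limma). The hinge protein gene *Uqcrh*, whose acidic product helps cytochrome c to dock, read 5.49, 5.39 and 5.49 in Slug+/+ and 5.73, 6.18 and 5.87 in Slug-/- SCs. Its Slug+/+ arrays lay close together and below all Slug-/- arrays, with a difference of 0.47 (limma standard error 0.18, adjusted p = 0.833).

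*Uqcrc1* and *Uqcrc2* encode the core proteins, which face the matrix. *Uqcrc2* read 6.49, 5.83 and 6.62 in Slug+/+ and 6.79, 6.66 and 7.05 in Slug-/- SCs, a difference of 0.52 (standard error 0.25). The groups did not overlap, although the spread within Slug+/+ was large because replicate 2 was low. *Uqcrc1* read 6.41, 6.32 and 6.77 against 6.69, 6.78 and 7.55, a difference of 0.50 with overlap between Slug+/+ replicate 3 and Slug-/- replicate 1.

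*Cyc1*, which encodes the cytochrome c1 that passes electrons on to cytochrome c, had the largest difference of complex III. It read 7.03, 6.40 and 7.22 in Slug+/+ and 7.59, 7.12 and 7.53 in Slug-/- SCs. The low Slug-/- replicate 2 fell below the highest Slug+/+ array, and the difference of 0.53 (standard error 0.26) did not pass the test (adjusted p = 0.881 from limma). The Rieske iron-sulfur protein gene *Uqcrfs1* read 4.40, 4.10 and 3.90 against 4.51, 4.34 and 4.46, with overlap. The small subunits *Uqcr11* and *Uqcrq* had differences of 0.44 and 0.32, also with overlap. The pseudogene *Uqcrh-ps1* read 1.47, 1.90 and 1.47 against 1.54, 1.78 and 1.79, under the guide to background on all arrays. The complex III median of 0.47 was 0.29 both without Slug+/+ replicate 2 and without Slug-/- replicate 3.

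*Cycs* encodes cytochrome c, the mobile carrier between complexes III and IV. It read 7.59, 7.83 and 8.01 in Slug+/+ and 8.69, 7.88 and 8.39 in Slug-/- SCs. Slug-/- replicate 1 was the highest and replicate 2 lay inside the Slug+/+ range, so that the difference of 0.51 (standard error 0.25) did not pass the test (adjusted p = 0.881 from limma). *Cycs* has 5 probe sets with this symbol only, and the other 4 had differences of 0.50, 0.26, 0.52 and 0.52, the last pair with identical values on every array. None of the 5 separated the genotypes.

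In complex IV, the subunits found in most tissues and the isoforms made mainly in particular tissues were looked at apart. Of the 9 widely expressed subunits, 8 had a positive difference, the median was 0.28, and in 3 of them, *Cox6b1*, *Cox7b* and *Cox8a*, the genotypes did not overlap. Of the 7 tissue isoforms, 4 had a positive difference, the median was 0.02, and the genotypes did not overlap in 1, the lower *Cox6b2*. The difference between both sets was not tested. Over all 17 genes of complex IV, 17.6% separated the genotypes upward and 5.88% downward, against 5.24% and 5.4% of all genes. The median of all 17 genes of complex IV, 0.24, was 0.13 without Slug+/+ replicate 1.

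*Cox6b1*, which encodes the common form of the subunit that faces the intermembrane space, had the smallest p among the widely expressed subunits. It read 5.74, 5.89 and 5.95 in Slug+/+ and 6.28, 6.09 and 6.52 in Slug-/- SCs. All Slug-/- arrays were higher, by 0.44 on average (standard error 0.18, adjusted p = 0.858 from limma). Its testis isoform *Cox6b2* had the opposite sign and read 4.05, 4.27 and 4.68 in Slug+/+ and 3.68, 3.81 and 3.78 in Slug-/- SCs. All Slug-/- arrays were lower, with a difference of -0.58 (limma standard error 0.21, adjusted p = 0.823). The log2 ratio of *Cox6b1* to *Cox6b2* was thus higher in Slug-/- SCs by 1.01, and its lack of overlap follows from that of both genes. The ratios of *Cox4i1* to *Cox4i2*, *Cox6a1* to *Cox6a2* and *Cox7a2* to *Cox7a1* went the other way. They differed by -0.12, -0.15 and -0.49, all with overlap. *Cox4i2*, with a mean of 3.31, lies near the guide to background. The pairs with *Cox8b*, *Cox7b2* and *Cox8c* also rest on isoforms at or near background. *Cox8a* to *Cox8b*, *Cox7b* to *Cox7b2* and *Cox8a* to *Cox8c* went the same way as *Cox6b1* to *Cox6b2*, by 0.77, 0.36 and 0.28. Of these only *Cox8a* to *Cox8b* was without overlap. The *Cox6b1* stretch printed first above is from the gene of the common form.

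*Cox8a*, the common form of the small membrane subunit 8, read 10.04, 9.86 and 9.96 in Slug+/+ and 10.27, 10.11 and 10.38 in Slug-/- SCs, a difference of 0.30 (standard error 0.17) without overlap. Its heart and muscle isoform *Cox8b* read 3.74, 3.18 and 3.39 against 3.58, 2.82 and 2.51. *Cox8b* overlapped between the genotypes, had a difference of -0.47 and fell under the guide to background on 2 of the 3 Slug-/- arrays. The ratio of *Cox8a* to *Cox8b* given above therefore rests in part on values at background. An exact test of 3 against 3 arrays cannot go below p = 0.1.

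The other heart and muscle isoforms did not share the direction of *Cox8b*. *Cox7a1* read 4.67, 3.12 and 3.85 in Slug+/+ and 4.92, 4.19 and 4.84 in Slug-/- SCs. Its difference of 0.77 was the largest of all members, and its standard error of 0.40 the largest too, since Slug+/+ replicates 1 and 2 lay far apart. The common form *Cox7a2* read 8.42, 8.63 and 9.11 against 9.12, 8.58 and 9.31, with overlap and a difference of 0.28. *Cox6a2* read 4.21, 4.50 and 4.39 against 4.66, 5.34 and 4.39, and its common form *Cox6a1* read 8.38, 8.96 and 8.50 against 8.84, 8.87 and 8.97. Both overlapped between the genotypes.

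*Cox4i1* encodes the common form of subunit 4 and *Cox4i2* a form known from lung and other oxygen-sensing cells. *Cox4i1* read 9.28, 8.97 and 9.25 against 9.39, 9.24 and 9.57, and *Cox4i2* read 2.95, 3.25 and 3.21 against 3.94, 3.10 and 3.40, both with overlap. *Cox7b*, the common form of subunit 7b, read 8.33, 8.50 and 8.49 against 8.61, 8.62 and 8.58. Its Slug-/- arrays were all higher, but by 0.16 only (standard error 0.16). A second probe set of *Cox7b* overlapped, with means of 1.95 in Slug+/+ and 2.57 in Slug-/- SCs, under the guide to background. The testis isoforms *Cox7b2* (1.64, 1.70 and 1.17 against 1.38, 1.37 and 1.19) and *Cox8c* (1.78, 1.72 and 1.83 against 1.68, 1.92 and 1.78) stayed under the guide to background.

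*Cox7c*, a small subunit with no isoform, read 3.21, 4.29 and 3.79 in Slug+/+ and 4.28, 4.28 and 4.78 in Slug-/- SCs. Slug+/+ replicate 2 matched the lower Slug-/- arrays, and the difference of 0.69 (standard error 0.30) did not pass the test (adjusted p = 0.868 from limma). The subunits *Cox5a* and *Cox5b*, which sit on the matrix side, had differences of 0.24 and -0.16 with overlap, and a second probe set of *Cox5b* had one of 0.16. *Cox7a2l*, which links complex III to complex IV in supercomplexes, had a difference of -0.09 with overlap.

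In ATP synthase 15 of 18 genes had a positive difference, against 48.4% of all genes. In 7 of the 15 the genotypes did not overlap, against 5.24% of all genes with Slug-/- above Slug+/+. The median of 0.25 was 0.37 without Slug-/- replicate 2. By position in the enzyme, those 7 genes were 1 of 2 in the catalytic head, 1 of 3 in the central stalk, 1 of 3 for the ring, 1 of 4 in the peripheral stalk and 3 of 5 in the rest of the membrane part.

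The catalytic head is built of the alpha subunit, encoded by *Atp5a1*, and the beta subunit, encoded by *Atp5b*. *Atp5a1* read 8.70, 8.49 and 8.36 in Slug+/+ and 9.03, 8.72 and 8.85 in Slug-/- SCs, a difference of 0.35 (standard error 0.18). The genotypes did not overlap, but Slug+/+ replicate 1 and Slug-/- replicate 2 almost met. *Atp5b* read 9.58, 9.02 and 9.24 against 9.71, 9.36 and 9.86, with overlap and a difference of 0.36.

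The 3 genes of the central stalk, the axle that turns within the head, differed among themselves. *Atp5e*, for the epsilon subunit, read 7.32, 7.31 and 7.62 in Slug+/+ and 7.81, 7.88 and 7.90 in Slug-/- SCs. Its 3 Slug-/- arrays lay close together above the Slug+/+ arrays, with a difference of 0.44 (limma standard error 0.17, adjusted p = 0.826). A second and dimmer probe set of *Atp5e* had a difference of -0.09, and the mean of both one of 0.17. *Atp5c1*, for the gamma subunit, and *Atp5d*, for the delta subunit, had differences of -0.00 and -0.07 with overlap.

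Subunit c, which forms the proton-driven ring, is made from 3 genes whose mature proteins are the same in mammals. *Atp5g2* read 7.45, 7.85 and 7.80 in Slug+/+ and 8.24, 7.95 and 8.41 in Slug-/- SCs. Slug-/- replicate 2 was only just above the Slug+/+ range, and the difference was 0.50 (standard error 0.20, adjusted p = 0.854 from limma). Its second probe set also separated the genotypes, with a difference of 0.58. *Atp5g3* read 4.69, 4.68 and 5.42 against 5.73, 4.88 and 5.72, a difference of 0.51 with overlap, and *Atp5g1* read 4.82, 3.71 and 4.22 against 4.59, 4.48 and 4.02, a difference of 0.11 with overlap.

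Of the peripheral stalk, which holds the head still, only *Atp5h* for subunit d separated the genotypes. It read 7.10, 6.83 and 7.16 against 7.22, 7.18 and 7.71, a difference of 0.34 (standard error 0.21) in which Slug-/- replicate 3 stood apart. A second and dimmer probe set of *Atp5h* overlapped between the genotypes, with a difference of 0.51. *Atp5pb*, *Atp5j* and *Atp5o*, for subunit b, the coupling factor and the oligomycin-sensitivity protein, had differences of 0.20, 0.11 and 0.12 with overlap, and *Atp5o* lay under the guide to background on all arrays.

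The membrane part held the gene with the smallest p of ATP synthase. *Atp5md*, for the small protein DAPIT that helps join ATP synthase into dimers, read 9.33, 9.10 and 9.58 in Slug+/+ and 9.84, 9.71 and 10.03 in Slug-/- SCs. All Slug-/- arrays were higher, by 0.52 on average (standard error 0.19, adjusted p = 0.826 from limma). *Atp5mpl*, for a small proteolipid, read 6.40, 5.95 and 6.51 against 6.91, 6.57 and 6.88. Its genotypes did not overlap and differed by 0.50 (standard error 0.21, adjusted p = 0.858 from limma). *Atp5l*, for subunit g of the dimer interface, read 10.59, 10.68 and 10.67 against 10.99, 10.75 and 11.08, a difference of 0.29 (standard error 0.17) without overlap. *Atp5k* and *Atp5j2*, for subunits e and f, had differences of 0.18 and 0.03 with overlap. The pseudogene *Atp5c1-ps* had the lowest difference of the ATP synthase genes, -0.42. It read 1.28, 2.31 and 2.07 against 1.44, 1.38 and 1.60, under the guide to background on all arrays.

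Bright genes in general stood a little higher in Slug-/- SCs, so members were set beside genes of like signal. All 13 members that separated the genotypes upward had a mean above 5. Between 5 and 7, 4 of 11 members did so against 8.88% of 4033 genes, and the medians of the difference were 0.44 and 0.11. Between 7 and 9, 6 of 12 members did so against 11.7% of 903 genes, with medians of 0.35 and 0.11. Above 9, 3 of 5 members did so against 11.2% of 170 genes, with medians of 0.30 and 0.07. From the guide to background up to 5, none of 12 members did so against 4.93% of 6732 genes, with medians of 0.11 and -0.02. In this band 8 of 12 members had a positive difference, against 47.4% of all genes. From 5 to 7 it was 10 of 11 members against 61.9%. From 7 to 9 it was 11 of 12 against 65.3%, and above 9 it was 5 of 5 against 68.2%.

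**Figure D2:**
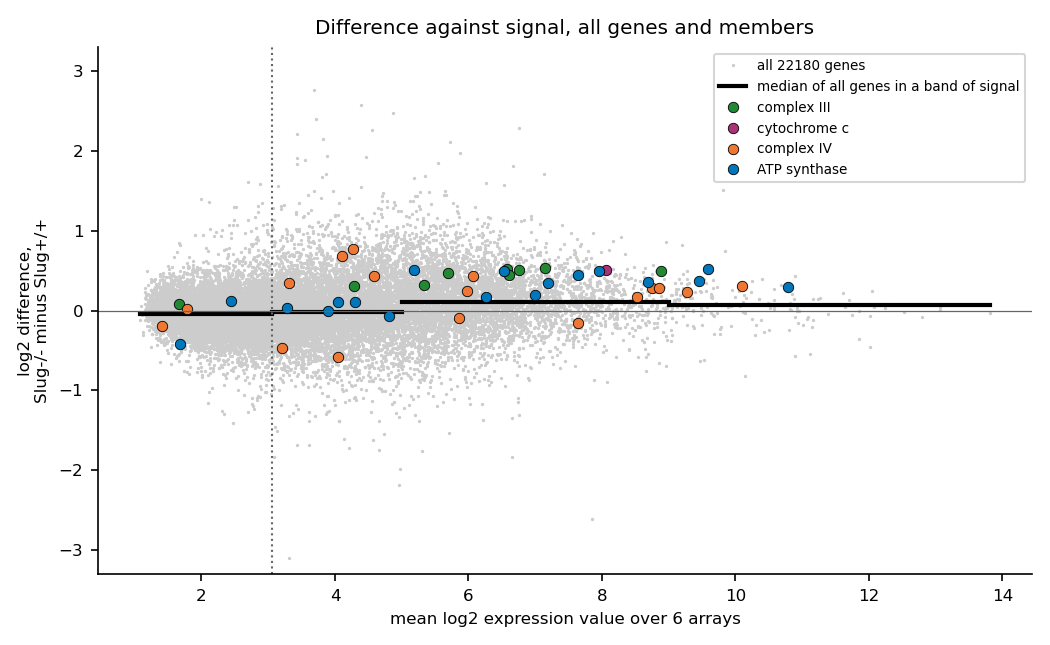
Log2 difference (Slug-/- minus Slug+/+) against the mean log2 expression value over 6 arrays, for 22180 genes in grey and the members by complex in colour. The members above a mean of 5 lie mostly above 0, while the 5 members under the guide to background lie on both sides of it.

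**Figure D3:**
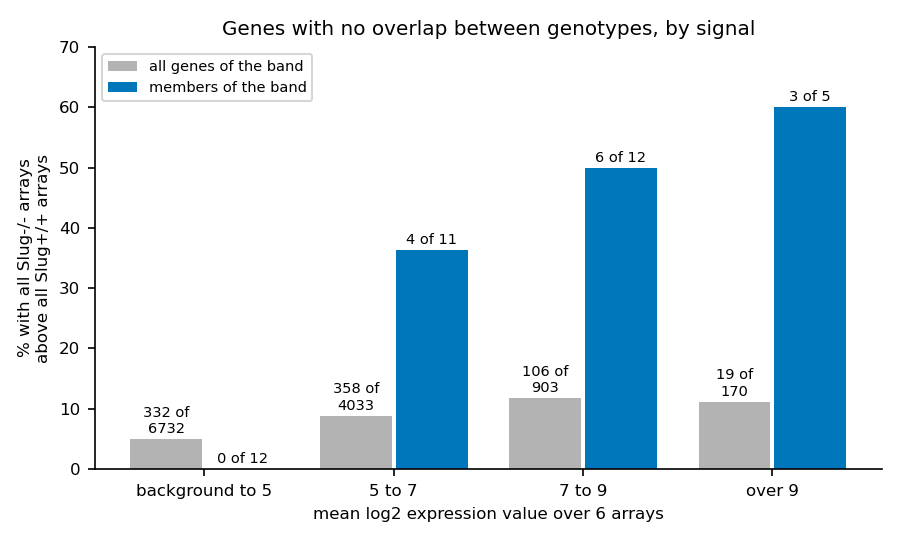
Share of genes, in %, in which all Slug-/- arrays lay above all Slug+/+ arrays, in 4 bands of mean log2 expression value, for all genes and for members. The members' share was 0 of 12 in the dimmest band and 4 of 11, 6 of 12 and 3 of 5 in the others, with all genes between 4.93% and 11.7%.

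The mitochondrial genome encodes the catalytic core of complex IV, cytochrome b of complex III and some subunits of complex I and ATP synthase. The array measured 10 of these 13 genes with probe sets of 1 symbol. Of these, 8 had a positive difference, the median was 0.06, and none separated the genotypes. In the bands above 5, 61.9% to 68.2% of all genes had a positive difference. Cytochrome b (CYTB) read 11.70, 11.71 and 11.84 in Slug+/+ and 11.89, 11.65 and 11.91 in Slug-/- SCs, a difference of 0.07 (standard error 0.17). COX1 read 13.08, 13.06 and 13.04 against 13.14, 13.04 and 13.02, a difference of 0.01 (standard error 0.15). COX3 read 11.73, 11.77 and 11.81 against 11.86, 11.62 and 11.66, a difference of -0.05 (standard error 0.16). These transcripts are among the brightest on the arrays, and whether their signal had room to rise was not tested. The genes of this list with the smallest p were the dimmer complex I genes ND4L and ND6. ND4L read 7.94, 7.49 and 7.43 against 8.73, 7.69 and 8.15, a difference of 0.57 (limma standard error 0.29, adjusted p = 0.897) in which Slug-/- replicate 2 lay inside the Slug+/+ range. ND6 had a difference of 0.26, as had ND3, both with overlap.

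**Figure D4:**
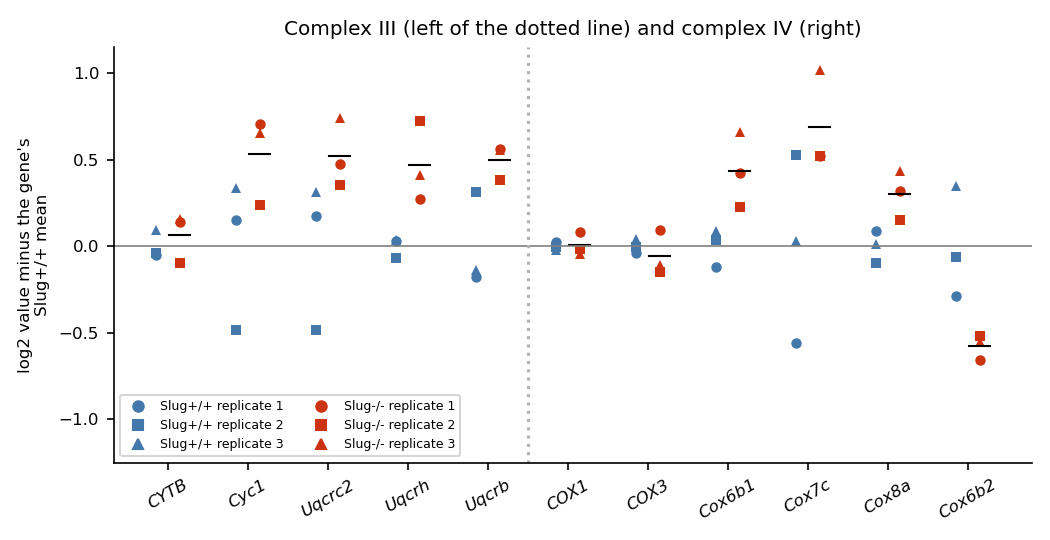
Log2 value on each array minus the gene's Slug+/+ mean, with a bar at the Slug-/- mean. Shown are mitochondrially encoded CYTB, COX1 and COX3 and some nuclear subunits of complexes III and IV. Of the nuclear genes shown, *Cyc1* and *Cox7c* overlapped between the genotypes. So did nuclear subunits not shown, such as *Uqcrq*, *Cox4i1*, *Cox5a* and *Cox5b*, with differences of 0.32, 0.23, 0.24 and -0.16. CYTB, COX1 and COX3 lie within a narrow range around 0 on all arrays, *Uqcrc2*, *Uqcrh*, *Uqcrb*, *Cox6b1* and *Cox8a* lie above the Slug+/+ arrays in Slug-/- SCs, and *Cox6b2* lies below them.

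Among the factors that assemble these complexes, those of complex IV and ATP synthase included genes with clear separation. Of 22 measured assembly and copper delivery factors of complex IV, 16 had a positive difference, and the median was 0.17. In limma 3 (13.6%) passed an unadjusted p under 0.05, all higher, against 3.31% of all genes. *Cox20*, which guides the newly made COX2 subunit, read 5.26, 5.49 and 5.57 in Slug+/+ and 6.05, 6.19 and 6.31 in Slug-/- SCs. All Slug-/- arrays were well above, with a difference of 0.74 (limma standard error 0.18, adjusted p = 0.726). *Higd2a*, which takes part in joining complexes into supercomplexes, differed by 0.64 (standard error 0.17) and *Pet100*, an early assembly factor, by 0.69 (standard error 0.23), both without overlap.

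Of 7 assembly factors and inhibitors of ATP synthase, 6 had a positive difference and the median was 0.32. *Tmem70*, needed to assemble the ring, read 4.91, 4.62 and 5.13 against 5.49, 6.30 and 5.68, a difference of 0.94 (limma standard error 0.26, adjusted p = 0.792) without overlap. *Atpif1*, the inhibitor that stops the enzyme from running backwards, read 7.31, 7.05 and 7.37 against 7.99, 7.59 and 7.48, a difference of 0.44 without overlap. The 6 assembly factors of complex III had a median of -0.00 and no gene that separated the genotypes, and the 2 with the smallest p, *Uqcc1* and *Uqcc2*, had differences of -0.31 and 0.20.

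The neighbouring complexes were compared in the same way. Of 33 complex I subunits, 25 had a positive difference, the median was 0.21, and 4 separated the genotypes upward and 1 downward. These were 12.1% and 3.03%, against 5.24% and 5.4% of all genes. Past an unadjusted p under 0.05 were *Ndufa12* and *Ndufa11*, higher by 0.56 and 0.82, and *Ndufs4*, lower with a difference of -0.58. They were 6.06% higher and 3.03% lower, against 3.31% and 2.49% of all genes. Among genes with a mean from 5 to 7, 8.88% separated upward and 7.12% were called higher. Of the 4 subunits of complex II, 3 had a positive difference, with *Sdha* at 0.37 and *Sdhb* at 0.28, and none separated the genotypes. Taken per array, the median deviation of the complex I subunits was 0.06 to 0.43 in Slug-/- and -0.07 to 0.03 in Slug+/+ SCs, without overlap. That of complex II overlapped. Whether complexes differ from each other in their shift was not tested.

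Other mitochondrial lists had medians near that of all genes. The 16 genes of mitochondrial mass and protein import had a median of 0.02, with *Opa1*, which fuses inner membranes, higher by 0.57 and the chaperone gene *Hspd1* by 0.38, both without overlap. The 15 regulators of respiratory genes had a median of 0.05, and none passed an unadjusted p under 0.05. *Tfb1m*, which modifies mitochondrial ribosomal RNA, read 3.99, 3.15 and 4.34 against 3.35, 5.82 and 5.80, and *Yy1* had a difference of 0.35, both with overlap. *Gabpa*, which encodes the DNA-binding subunit of GABP, was the only regulator to separate the genotypes. It read 5.18, 5.08 and 5.14 against 5.20, 5.44 and 5.26, a difference of 0.17 (limma standard error 0.16, adjusted p = 0.936), with Slug+/+ replicate 1 and Slug-/- replicate 1 almost equal.

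**Figure D5:**
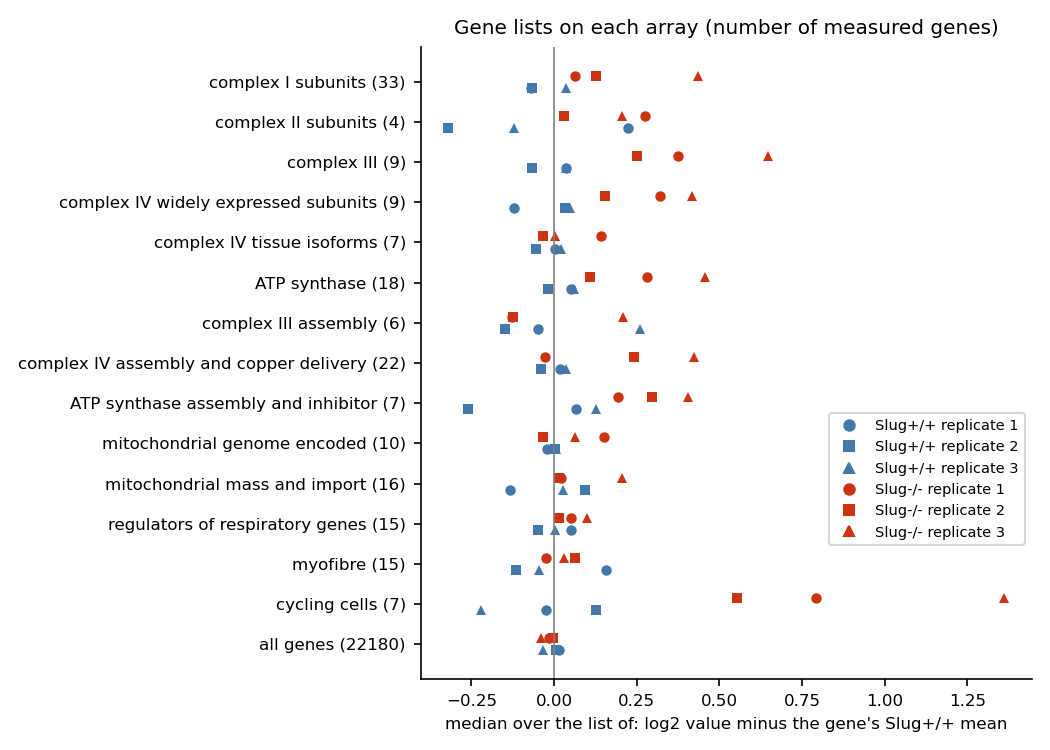
Median over each list of the log2 value minus the gene's Slug+/+ mean, 1 point per array, with the number of measured genes in brackets. In complex III, the widely expressed subunits of complex IV and ATP synthase the 3 Slug-/- points lie to the right of the Slug+/+ points. The same holds for complex I subunits and for the assembly factors and inhibitors of ATP synthase. It does not hold for complex II or for the assembly factors of complexes III and IV. In the tissue isoforms of complex IV the genotypes overlap, and the cycling genes reach 1.36 on Slug-/- replicate 3.

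Markers of other cells and states were measured beside the members. The 7 measured genes of cycling cells, 3 of them above background, had a median difference of 0.76. Of the 7, 5 separated the genotypes upward, against 5.24% of all genes, each past an unadjusted p under 0.05. These were *Mki67* by 2.47, *Cdk1* by 2.39, *Top2a* by 1.56, *Birc5* by 0.76 and *Ccna2* by 0.67. *Birc5* and *Ccna2* had means of 2.34 and 2.78, under the guide to background. The summed signal (log2) of the 7 genes was 5.26 to 5.83 on the Slug+/+ and 6.87 to 7.41 on the Slug-/- arrays. On the Slug-/- arrays the median deviation of the cycling genes was 0.79, 0.55 and 1.36 for replicates 1, 2 and 3. Replicate 3 was highest and replicate 2 lowest, as in the median over all members. The order differed for the complex I subunits (0.06, 0.13 and 0.43) and for *Cycs* (0.88, 0.07 and 0.58). The part of cycling cells in the respiratory differences was not tested.

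Myofibres are rich in respiratory transcripts, so 15 myofibre markers, 10 of them above background, were measured too. Their median difference was 0.04, and their summed signal (log2) was 8.49 to 8.59 on the Slug+/+ and 8.36 to 8.65 on the Slug-/- arrays. *Atp2a1* had a difference of -0.66, past an unadjusted p under 0.05, and *Acta1* one of 0.52, both with overlap. The 10 SC markers had a median of 0.14, and none passed an unadjusted p under 0.05, with *Itga7* and *Cxcr4* both at 0.35.

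Smooth muscle and pericyte markers, 8 of 8 above background, summed to 8.99 to 9.42 on the Slug+/+ and 9.39 to 10.07 on the Slug-/- arrays, with *Tagln* higher by 0.87. Blood and immune markers, 2 of 8 above background, summed to 7.02 to 7.38 and 6.47 to 7.24, and *Cd68* was lower with a difference of -0.96. The sums were 7.82 to 8.35 and 7.81 to 8.29 for endothelial markers (6 of 8 above background), 11.52 to 11.92 and 11.39 to 11.93 for fibroblast markers (5 of 7) and 5.54 to 6.07 and 5.87 to 6.23 for Schwann markers (3 of 4). Single genes past an unadjusted p under 0.05 in these lists were *Emcn* at 0.74, *Lum* at 1.05 and *Ngfr* at 0.69. Next in these lists by p, and not past it, were *Kdr* at 0.33, *Adgre1* at -0.30, *Col3a1* at 0.37, *Kcnj8* at -0.24 and *Mbp* at 0.26. Dissociation stress genes, 9 of 9 above background, summed to 14.70 to 14.99 and 14.57 to 14.84, with *Atf3* at -0.39 and *Fos* at -0.63. The part of these lists in the respiratory differences was not tested.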

How the data were processed

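The values used are the log2 expression values that the authors deposited, 1 for each of 41345 probe sets and 6 arrays, made with Affymetrix's Gene Expression Console from biotin-labelled RNA. The sources used here do not name the algorithm of that step, and an algorithm that equalizes the arrays would remove any shift shared by all genes. Of the probe sets, 23521 carry exactly 1 symbol in the platform annotation, and the brightest was taken for each of 22180 genes. Samples were assigned to genotypes by their titles, and 0 sample columns were left unused. Slug-/- and Slug+/+ were compared with limma 3.58.1 in R 4.3.3 (lmFit and eBayes, prior degrees of freedom 3.57, genotype as the only term), with Benjamini-Hochberg adjustment over 22180 genes and no filter on dim genes. The test steps were tested on simulated data. With 3 arrays in each genotype, the number of arrays limits the precision.

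Lists are described by counts and medians beside all genes, with no set test. The members, lists and tests were chosen with earlier results of these data known. Named are, in each complex, the 3 genes with the smallest p, the largest and smallest difference, every gene whose arrays do not overlap, the isoform pairs, the subunit c genes, *Cyc1* and *Cycs*, and in each other list the 2 genes with the smallest p and all past an unadjusted p of 0.05. *Gabpa*, CYTB, COX1, COX3 and ND3 were named after their values were seen. Alternatives were an intensity trend, a robust prior, a plain unpaired test, the mean of probe sets, every probe set, genes above background only, quantile normalization, subtraction of array medians, weighted arrays, a block for the replicate number, leaving out each array in turn and, added after seeing the data, cyclic loess normalization. Genome positions come from RefSeq's GRCm38.p6 tables and were used for the promoter windows only.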

Additional observations from a re-analysis of the deposited data

Results flagged for a closer look

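Signals outside the counts came from probe sets that carry a second symbol and were therefore not used for a member. The probe set shared by *Uqcr10*, a small subunit of complex III, and the predicted gene *Gm6293* read 3.93, 4.03 and 4.24 in Slug+/+ and 4.42, 4.25 and 4.38 in Slug-/- SCs, a difference of 0.286 without overlap. One of the probe sets shared by *Cox6c*, a subunit of complex IV, and *Gm6265* read 7.96, 8.21 and 7.73 against 8.36, 8.23 and 8.72, a difference of 0.467 without overlap. The other probe set of *Cox6c* and *Gm6265* had a difference of -0.00 with overlap. A probe set shared by *Uqcrb* and *Gm10767* had means of 1.97 and 1.88, a difference of -0.09 with overlap. How the signal divides between each pair of genes was not tested.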

How the results depend on the processing

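Across the 17 alternatives no member passed an adjusted p of 0.05. The medians of complex III, complex IV, ATP synthase and all members stayed positive in each alternative for which they were computed. They were not computed with every probe set, with weighted arrays, with the replicate block or where only the test changed. The 7 members called higher at an unadjusted p under 0.05 became 0 with genes above background only, 4 after quantile normalization and 3 after cyclic loess, which was chosen after seeing the data, and the causes were not tested. Leaving out each array gave 1 to 8 higher, 0 to 2 lower, 14 to 26 members with Slug-/- above Slug+/+ on all arrays and 1 to 3 below. In these fits the share of all genes with Slug-/- above on all arrays also rose, from 5.24% to between 9.63% and 10.7%. Without Slug-/- replicate 1, 14 of the 45 members stood against 10.2% of all genes. The medians then ranged from 0.29 to 0.54 in complex III, 0.13 to 0.29 in complex IV, 0.24 to 0.37 in ATP synthase and 0.23 to 0.38 over all members. Subtraction of array medians turned the calls over all genes from 734 higher and 552 lower to 907 and 405. Correlations used to check for pairing are a different measure from the r across probe sets given above. They were 0.0288, 0.0192 and 0.135 for same-numbered arrays of both genotypes and -0.0776 to 0.046 for differently numbered ones. Replicate 3 had the highest value, but replicates 1 and 2 lay within the range of the others, so the numbers were not taken as pairs. With the replicate block 7 members were higher and 1 lower. Only 2 of the 7 were called in both fits: *Uqcrb*, *Uqcrh*, *Cox6b1*, *Atp5e* and *Atp5g2* lost the call and *Uqcrc1*, *Uqcrc2*, *Cyc1*, *Cox7a1* and *Cox7c* gained it, so complex III went from 2 to 3, complex IV from 1 to 2 and ATP synthase from 4 to 2. Of 760 values of single members, 651 kept direction and side of the threshold, 62 in 8 members lost the call, 25 in 15 members gained one and 22 in 10 members changed sign. *Cox5b* became 0.0015 with the mean of probe sets, and *Atp5c1* 0.00997 after quantile normalization, 0.0450 after subtraction of medians and 0.0259 after cyclic loess. Leaving out each array gave -0.0291 to 0.596 for *Cox5a*, -0.187 to 0.0247 for *Cox7a2l*, -0.046 to 0.0742 for *Cox8c*, -0.0787 to 0.0357 for *Atp5c1*, -0.368 to 0.0919 for *Atp5d*, -0.158 to 0.396 for *Atp5g1*, -0.0783 to 0.247 for *Atp5o*, -0.151 to 0.309 for *Atp5j2* and -0.0296 to 0.355 for *Atp5k*. The median over all genes, -0.01, was 0.0353 with genes above background only and 0.0374 after subtraction of medians.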
